A study of Rattus norvegicus with 2 samples.

Results

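Oligodendrocyte precursor and lineage genes were compared between the nucleus tractus solitarius (NTS) of male and female rats. The set holds 8 genes: Pdgfra, Cspg4, Olig1, Olig2, Sox10, Ptprz1, Gpr17 and Nkx2-2. They were chosen by name, as every rat spot of the arrays whose gene name is one of the 8, out of 18408 genes that the arrays name by symbol. For 7 of the 8 such spots were found, 35 spots of 8 probes, and Nkx2-2 was not analysed here. Each of the 7 had a probe that the scanner software called well above background on both arrays, as did 15276 genes in all.

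The samples were 2 pools of total RNA from Wistar Kyoto rats, a normotensive inbred strain, aged 9 weeks: 5 males made up 1 pool and 5 females the other. Each rat gave 100 ng of RNA, and 1 single-colour Agilent array was hybridised per pool. Tissue was taken by dissection from 1.0 mm in front of the calamus scriptorius to 0.5 mm behind it, so it holds every cell type of that block. With 1 array per sex there is no replicate, no test was made, and differences between rats are not measured. In such bulk tissue more cells of a type and more RNA per cell cannot be told apart.

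Oligodendrocyte precursors are dividing glia that tile the adult brain and spinal cord and supply new myelinating oligodendrocytes. They are recognised by the PDGF receptor alpha, which receives their main mitogen, and by the NG2 proteoglycan that Cspg4 encodes. The transcription factors OLIG1, OLIG2 and SOX10 act throughout the lineage and are also found in mature oligodendrocytes, NKX2-2 acts around differentiation, and GPR17 marks the step between the precursor and the myelinating cell. In the hindbrain these cells lie in grey matter, such as the NTS, as well as in fibre tracts.

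The probes are 60-base oligonucleotides, and where a probe lies in its transcript decides what it can read. The probes of Olig2, Ptprz1 and Gpr17 below lie in coding sequence and are shown whole, 5′ to 3′, because these genes are the ones read by a single spot in the coding region. The capitals in the Ptprz1 probe mark the stop codon, so this probe ends where the protein does.
Olig2, coding probe: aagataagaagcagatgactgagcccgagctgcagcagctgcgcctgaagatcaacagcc
Ptprz1: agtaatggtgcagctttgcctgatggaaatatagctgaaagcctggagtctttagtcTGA
Gpr17: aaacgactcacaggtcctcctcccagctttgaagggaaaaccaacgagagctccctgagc

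The other probes start far along their transcripts, at base 6169 for Pdgfra, 8002 for Cspg4, 1934 for Olig1, 2823 for Sox10 and 2511 for the later Olig2 probe. A window of 30 bases is shown for each of 3 of them, with capitals for AATAAA, the signal that precedes the poly(A) tail. It was searched on the printed strand only. The Sox10 probe holds it once and the Cspg4 probe 2 times in adjacent copies, of which the first is marked, and 8.39% of the 30367 rat probes hold it. The later Olig2 probe does not hold it.
Sox10, bases 20 to 49 of the probe: cagcgatatcttAATAAAgtacgtagctct
Cspg4, bases 31 to 60 of the probe: ttcaaggggggaaacaaAATAAAaataaat
Olig2, later probe, bases 1 to 30: ctgccccgcagagtgtatctatcacttgtt

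By the coordinates of the array files, on the rat build rn4, the probes of the precursor surface genes lie at chr14:35369708-35369767 (minus strand) for Pdgfra, chr8:60645806-60645865 (plus) for Cspg4 and chr4:49467838-49467897 (plus) for Ptprz1. The Sox10 probe lies at chr7:117138840-117138899 (minus) and the Gpr17 probe at chr18:24374271-24374330 (minus). Olig1 and Olig2 are neighbours on chromosome 11, where the Olig1 probe lies at chr11:31246213-31246272 (plus), 37559 bases beyond the later Olig2 probe. The Olig2 probes lie at chr11:31206731-31206790 and chr11:31208654-31208713 (both plus). Their starts are 1923 bases apart in the genome and 1923 in the transcript, so no intron lies between them.

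Signals are the background-subtracted, detrended intensities of the scanner software. Levels are log2 signals relative to the 75th percentile of the rat spots, which was 3441 for males and 3380 for females, and every difference is female minus male of these levels. Of the rat spots 85.5% (male) and 87.9% (female) were well above background, no rat spot was saturated, and no spot of the 7 genes carried an outlier flag. The spread of repeated spots gives the technical error between spots of 1 probe only. Error from labelling and hybridisation, and between probes of 1 gene, is not in it, so a difference beyond it can still be technical. The root mean square SD of the spot difference was 0.069 among probes within 4-fold below the 75th percentile or above it. In this class lie 6 of the 7 genes. From 4- to 16-fold below the percentile, where Gpr17 lies, the SD was 0.089. Of the NTS markers 7 were counted, among them Th and Dbh of noradrenergic cells. Of these 7 markers 4 were higher in the female and 3 in the male pool, against 45.7% and 54.3% of all genes. The median of this list was 0.026. The largest differences were in Prlh at 0.62, Calcr at 0.24 and Lmx1b at 0.23, the last at a spot SD of 0.15. That median turned to -0.013 with 4 bands of array rows left out and was 0.13 with names from the reference table. The Y-linked gene Sry did not separate the pools, at a signal of 79.8 on the male and 75.1 on the female array, while the X-linked Kdm5c, which is reported to escape X inactivation, was higher in the female pool by 0.57.

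Most of the lineage genes were slightly higher in the female pool. The median over the 7 counted genes was 0.14, with a range from -0.025 for Gpr17 to 0.28 for Olig1, against a median of -0.014 over all 15276 genes. In 6 of 7 the level was higher in the female pool, as it was in 45.7% of all genes and in 44.3% of the genes of the brightest class; the share of all genes was 56.3% with scaling by the median and 50.01% with quantile normalization. None of the 7 reached a 2-fold difference, which 0.524% of all genes did (0.111% towards the female and 0.412% towards the male pool). In the group 1, Olig1, reached 1.2-fold towards the female pool, which 5.71% of all genes and 1.48% of the brightest class did, and 0 reached it towards the male pool, which 7.71% of all genes did. By over 2 spot SDs of their class 4 of the 7, Olig1, Pdgfra, Ptprz1 and Sox10, were higher in the female pool, where 7.14% of all genes were. In the male direction 0 of the 7 were, against 12.2% of all genes. The class SD is that of 1 spot pair, whereas Olig1 and Pdgfra are means over 10 spots and Ptprz1 and Sox10 single spots. Pdgfra had a larger SD over its own spot pairs, at 0.14. Sox10 was near the limit, at 2.07 spot SDs. Its difference of 0.143 was 0.130 with normexp background correction and 0.135 with quantile normalization. The genes were chosen with earlier results of these arrays known, so the counts are a description.

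**Figure D1:**
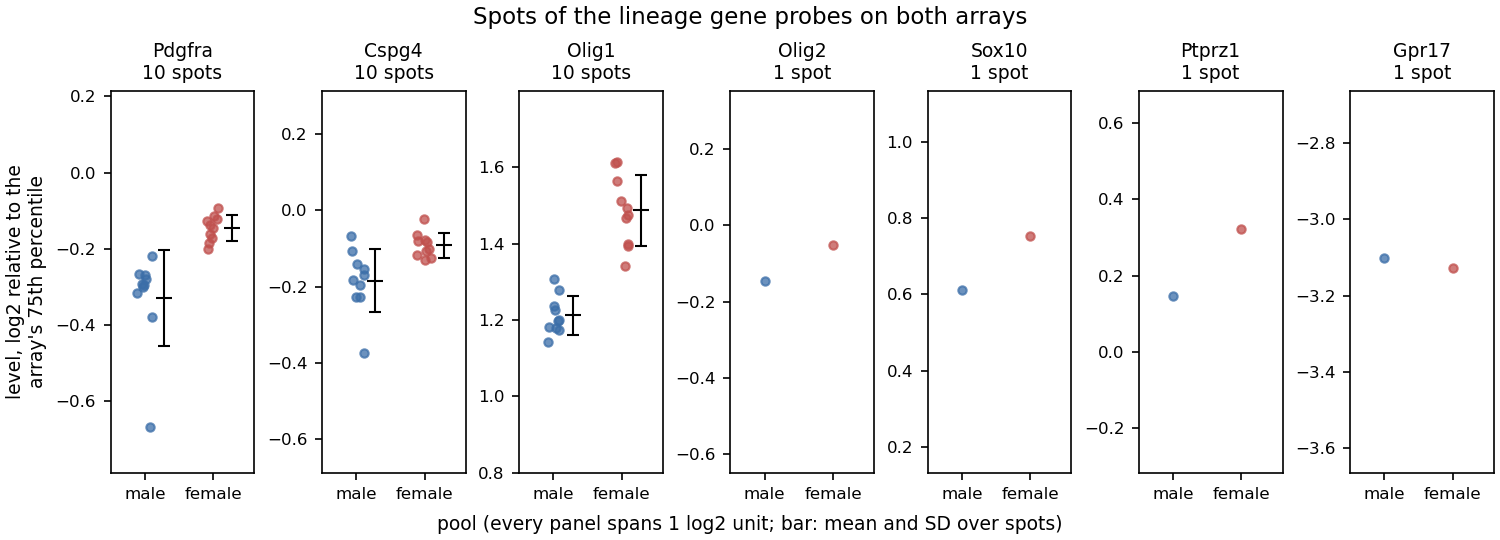
Each panel shows 1 probe, with the level of every spot on the male and the female array as log2 relative to the array's 75th percentile; every panel spans 1 log2 unit around its own values, and bars give the mean and SD over spots where there are 10. The 10 female spots of Olig1 and of Pdgfra lie above all 10 male spots, those of Cspg4 overlap, and Gpr17 is the only gene with the lower female value.

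The surface receptor that defines the precursor, Pdgfra, was measured with 10 spots. Its signal on the male array ran from 2167 over a median of 2808 to 2956, and on the female array from 2940 over a median of 3065 to 3171. On the scaled levels all 10 female spots lay above the highest male spot, at -0.15 ± 0.034 (SD, 10 spots) against -0.33 ± 0.13. The difference was 0.18 ± 0.14 (SD over 10 spot pairs), or 1.14-fold. A single male spot at 2167 lies far below the other 9, and without that spot pair the difference was 0.14 ± 0.059. Every one of the 10 spot pairs was higher on the female array, as in 21.5% of the 1253 repeated probes, and in 4.63% of them the female spots lay wholly above the male ones, with the reverse in 5.67%. Of the 3 lineage genes with 10 spots, Pdgfra and Olig1 had no overlap in this way.

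Cspg4, the NG2 proteoglycan of the precursor surface, which pericytes also carry, had a small female excess with overlapping spots. Its 10 male spots ran from 2655 over a median of 3048 to 3287 and its female spots from 3087 over a median of 3170 to 3325. The levels were -0.18 ± 0.083 and -0.091 ± 0.032 (SD, 10 spots each), and the 2 sets of spots overlapped, with 2 of the 10 female spots above the highest male spot and 8 of the 10 male spots below the lowest female one. All 10 spot pairs were higher on the female array, as in 21.5% of repeated probes. The difference of 0.093 ± 0.067 (SD over 10 spot pairs), or 1.07-fold, was 0.074 ± 0.035 without the spot pair farthest from the median, whose male signal was 2655. It was 1.34 times the spot SD of its class.

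Ptprz1 encodes a receptor-type tyrosine phosphatase with a large chondroitin sulphate ectodomain, found on precursors and on astrocytes. Its 1 spot, the coding probe shown above, gave 3806 for males and 4223 for females. The levels were 0.15 and 0.32, and the difference was 0.18, or 1.13-fold, which is 2.54 times the spot SD of its class.

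Among the transcription factors Olig1, a basic helix-loop-helix factor needed for myelin repair, had the largest difference of the 7 genes. Its 10 male spots ran from 7599 over a median of 7896 to 8515, and its 10 female spots from 8564 over a median of 9458 to 10342. The levels were 1.21 ± 0.050 and 1.49 ± 0.092 (SD, 10 spots each). No spot overlapped between the arrays, not even on the unscaled signal, and the difference was 0.28 ± 0.067 (SD over 10 spot pairs), or 1.21-fold. In size it was exceeded by 12.3% of all genes and by 4.43% of the brightest class. The spot pair farthest from the median was at 0.16, and without it the difference was 0.29.

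Its neighbour Olig2, the factor that specifies the lineage, was read by 2 single-spot probes that gave different answers. The probe that starts at base 2511 of the transcript gave 3113 (male) and 3260 (female), a difference of 0.092, or 1.07-fold, which is 1.34 times the spot SD. The coding probe, which starts at base 588, gave 15.7 in males, where it was not well above background, and 19.3 in females, where it was. The measured levels of this dim probe were -7.78 and -7.45. Their difference of 0.33 is no larger than the spot SD of its class, also 0.33, so no fold is given for it. Only the later probe is counted for Olig2 here; the median of both probes would be 0.21.

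Sox10, the high-mobility-group factor that switches on myelin genes together with MYRF, gave 5256 (male) and 5701 (female) from its 1 spot. The levels were 0.61 and 0.75, with a difference of 0.14, or 1.10-fold, 2.07 times the spot SD. Gpr17, the receptor of committed precursors, was the gene without a female excess: its 1 spot gave 401.0 and 387.1, levels of -3.10 and -3.13, and a difference of -0.025 that lies within the spot SD of 0.089. The order of the differences therefore runs from Olig1 through Pdgfra, Ptprz1, Sox10, Cspg4 and Olig2 to Gpr17. Pdgfra and Ptprz1 differ from each other by less than the spot SD, as do Ptprz1 and Sox10, Sox10 and Cspg4, and Cspg4 and Olig2.

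**Figure D2:**
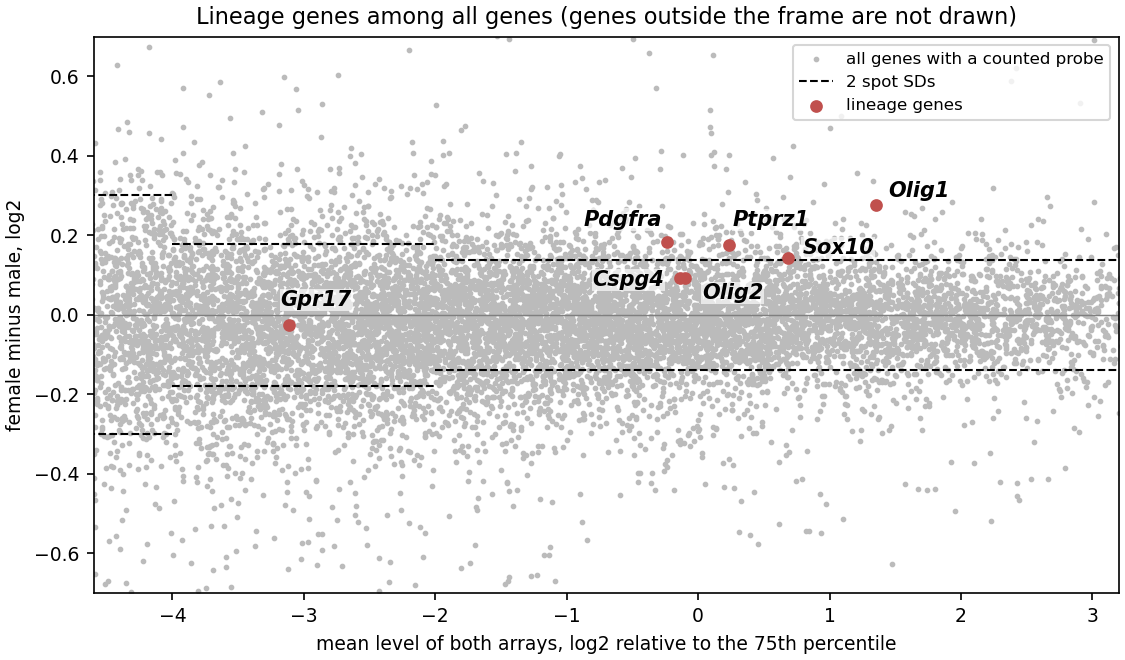
Each grey point is a gene with a counted probe, placed by the mean level of both arrays and the female minus male difference, both in log2; dashed lines mark 2 spot SDs of each brightness class and red points the 7 lineage genes. Olig1, Pdgfra, Ptprz1 and Sox10 lie above the upper line, Cspg4 and Olig2 between the lines, and Gpr17 near 0 at a lower level.

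The ligands of these receptors lay mostly near 0 or on the male side. Of the PDGF ligands and the other PDGF receptor, 1 of 5 lay on the female side, against 45.7% of all genes, and the median was -0.031. Pdgfa, the ligand that drives precursor division, differed by -0.031, with its 2 probes at -0.072 and 0.010. Pdgfd differed by -0.49, over 3 times the spot SD of 0.15 at its brightness, Pdgfb by -0.060 and Pdgfc by -0.019. Pdgfrb, the receptor of pericytes, gave 0.12.

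The ligands and partners of PTPRZ1 had a median of -0.053, and 3 of 9 were higher in the female pool, against 45.7% of all genes. The growth factor genes Ptn, pleiotrophin, and Mdk, midkine, gave -0.059 and 0.044, each within its spot SD of 0.069. Of the extracellular matrix partners, Tnc gave 0.20 at a spot SD of 0.33, Tnr -0.014, Ncan -0.065, Vcan -0.075 and Bcan 0.10, the last from 2 probes at -0.057 and 0.26. The axonal adhesion genes Cntn1 and Nrcam gave -0.053 and -0.12. None of the 9 lay beyond 2 spot SDs in either direction, where 7.14% (female side) and 12.2% (male side) of all genes did.

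Sonic hedgehog signalling induces the OLIG factors in the embryonic ventral neural tube. The genes of this pathway had a median of 0.16, with 5 of 7 on the female side, against 45.7% of all genes. Ptch1, the receptor and a transcriptional target of the pathway, gave 0.26 against a spot SD of 0.089, and the transcriptional effector Gli1, also a target, gave 0.16 against 0.069. The ligand gene Shh gave 0.29 against 0.15, Gli2 0.18 and Gli3 0.11. The signal transducer Smo was in the opposite direction at -0.42, and the inhibitor Sufu gave -0.17. The median was 0.10 with normexp. The sum of the 7 levels was 1.13 on the male and 1.10 on the female array, in units of the 75th percentile.

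The other transcription factors of the lineage were mostly higher in the male pool. Of 22 counted factors 17 were, at a median of -0.100, as were 54.3% of all genes. By over 2 spot SDs 7 were higher in the male and 1 in the female pool, against 12.2% and 7.14% of all genes. The largest differences were in Hes5, a Notch target that holds back differentiation, at -0.39, in Sox6, which keeps precursors undifferentiated, at -0.36 with a spot SD of 0.15, and in Prrx1 at -0.33, whose 2 probes gave -0.35 and -0.30. Many of these factors are expressed in astrocytes, neurons or vascular cells as well. No test compares this list with the 7 genes.

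Further precursor markers lay on both sides. Of 17 counted markers 7, or 41.2%, were higher in the female pool, near the 45.7% of all genes, and their median was -0.044. The 3 largest differences, each by more than 2 spot SDs, were on the male side. Dpysl3, a cytoskeletal protein of immature neural cells, gave -0.35, the transmembrane gene Tmem100 -0.34 and the fatty acid binding protein gene Fabp7 -0.24. Beyond 2 spot SDs lay 4 markers on the male side and 3 on the female side, against 12.2% and 7.14% of all genes. The 3 on the female side lay at 0.18 to 0.23. Of the genes of committed precursors and newly formed oligodendrocytes 9 of 16 lay on the female side, near the 45.7% of all genes. Their median was 0.0033. By over 2 spot SDs 2 were higher in the female and 4 in the male pool, against 7.14% and 12.2% of all genes. Bcas1, which marks early myelinating cells, was higher in the female pool by 0.27, with its 2 probes at 0.27 and 0.28, whereas the small GTPase gene Rnd2 gave -0.47 and the sulphotransferase gene Ust -0.27.

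Mature oligodendrocyte genes were the list of the lineage that shared the female excess. Their median was 0.12, with 15 of 18 on the female side, against 45.7% of all genes. By over 2 spot SDs 7 were higher in the female and 0 in the male pool, against 7.14% and 12.2% of all genes. Mog gave 0.47, Mobp 0.36 from 3 probes between 0.23 and 0.44, and Mag 0.27 from 2 probes at 0.25 and 0.29; all 3 encode proteins of the myelin sheath. The sum of the 18 levels was 42.1 on the male and 44.98 on the female array, and that of the 7 lineage genes 7.65 and 8.66, in units of the 75th percentile. Olig1, Olig2 and Sox10 are expressed in these mature cells too, and their part in the differences of the 7 genes was not tested.

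**Figure D3:**
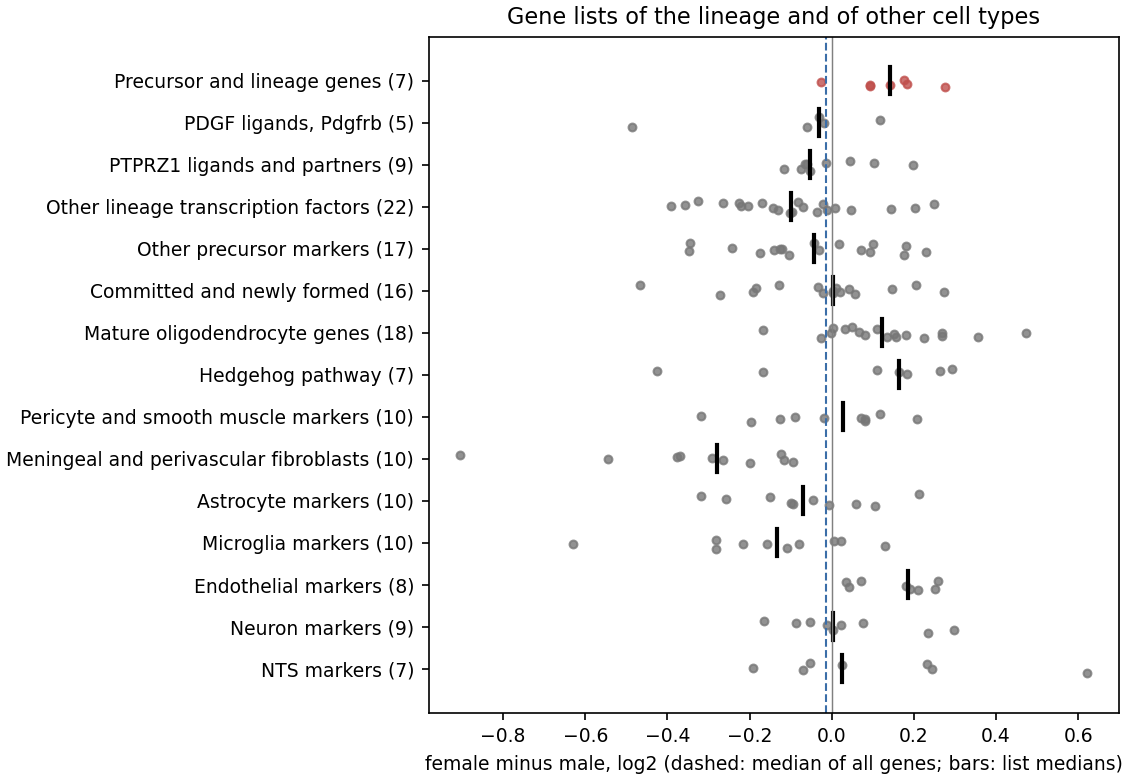
Each point is a counted gene and each row a list, with the number of counted genes in brackets; the x axis is female minus male in log2, black bars are list medians and the dashed line is the median of all genes. The precursor and lineage genes, the mature oligodendrocyte genes, the Hedgehog genes and the endothelial markers have medians from 0.12 to 0.19 (the endothelial one is 0.042 with normexp), and the fibroblast markers have the lowest at -0.28.

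Markers of other cells that carry some of these proteins went in different directions. Fibroblasts of the meninges and vessels also express Pdgfra. All 10 counted markers of them lay on the male side, against 54.3% of all genes, with a median of -0.28. Their summed levels were 20.5 on the male and 14.4 on the female array. Such sums are weighted to the brightest genes, here Col1a2, whose 1 spot lay at levels of 3.21 (male) and 2.30 (female). Col1a2 at -0.90, Aldh1a2 at -0.54 and Slc6a13 at -0.38 led this list, and Slc13a4 was not well above background on both arrays. Pericyte and smooth muscle markers, whose cells share Cspg4, had a median of 0.027 and sums of 2.57 and 2.63. On the female side lay 5 of 10, near the 45.7% of all genes. Their largest differences were -0.32 in Myh11, 0.21 in Notch3 and -0.20 in Anpep.

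Astrocytes also express Ptprz1, and 7 of 10 astrocyte markers lay on the male side, against 54.3% of all genes. Their median was -0.070. Their sums, in which the brightest gene weighs most, were 85.0 on the male and 80.5 on the female array. Gfap gave -0.32, Aqp4 -0.26 and Gjb6 0.21. Endothelial markers lay on the female side in 8 of 8, against 45.7% of all genes, with a median of 0.19 and sums of 4.50 and 5.27. They were led by Slc2a1 at 0.26, Abcb1a at 0.25 with a spot SD of 0.33 and Cldn5 at 0.21. With normexp background correction the endothelial median was 0.042. Microglia markers lay on the male side in 7 of 10, against 54.3% of all genes, with a median of -0.13 and sums of 21.7 and 20.7. Cd68 at -0.63, Csf1r at -0.28 and Itgam at -0.28 led this list. Neuron markers lay on the female side in 5 of 9, against 45.7% of all genes, with a median of 0.0031 and sums of 74.4 and 77.3. Among them Slc32a1 gave 0.30, Snap25 0.24 and Nefl -0.16. The neuron median was 0.076 where only a gene's brightest probe was used. The part of these cell types in the differences of the 7 genes was not tested.

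The direction of 6 of the 7 genes was the same under all 12 other ways of processing the arrays. Gpr17 turned to the female side under 4 of the 12, at 0.010 with scaling by the median, 0.020 with quantile normalization, 0.0010 with the trend with brightness removed and 0.63 with scaling by the spike-in probes. Spike-in scaling moved the median of all genes from -0.014 to 0.64 and the median of the 7 genes from 0.14 to 0.80.

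**Figure D4:**
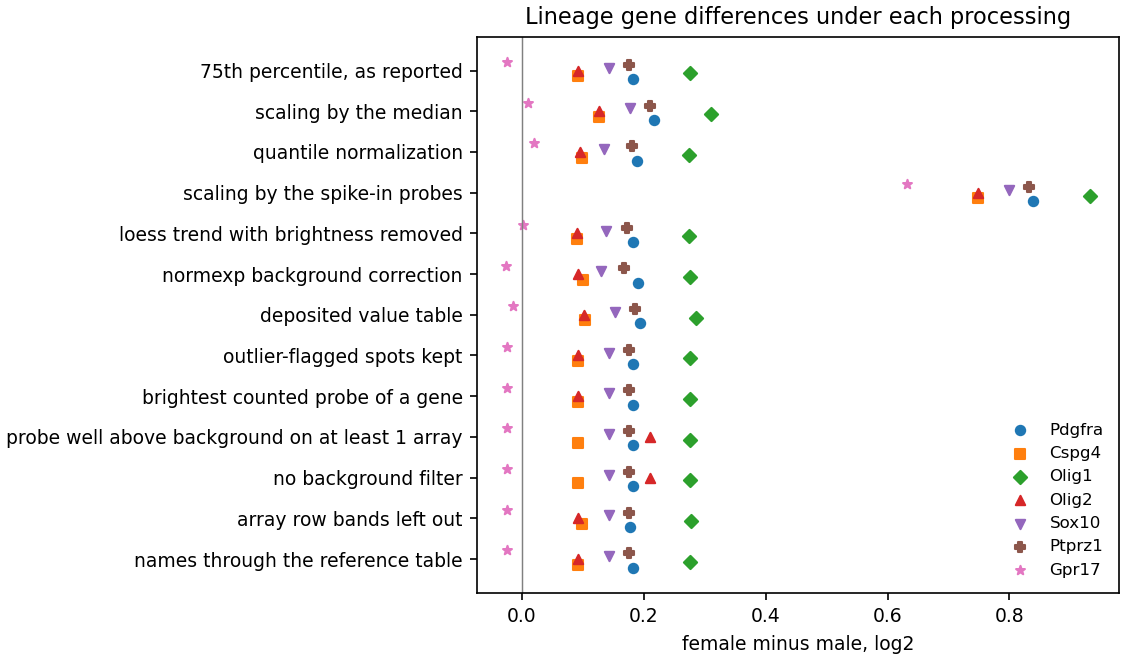
Each row is 1 way of processing the arrays, with the reported one at the top, and each symbol a lineage gene; the x axis is female minus male in log2. Olig1 has the largest value in every row, Gpr17 has the smallest in every row and lies on either side of 0, and spike-in scaling shifts all 7 genes together.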

How the data were processed

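Both arrays were single-colour Agilent arrays of 1 design. The deposited intensity values are the processed signal of Agilent Feature Extraction, background-subtracted and detrended within each array, with no scaling between arrays, per the file headers. The headers name version 10.7.3.1 and the submitters' processing notes version 9.1. A deposited value table holds the same intensity values, on a linear scale and not centred, times 1 factor per array (0.0291 male, 0.0296 female; column medians 28.0 and 27.3 over 37504 rows); what the factor stands for is unknown.

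Log2 signals were centred on the 75th percentile over rat spots, array by array, outlier-flagged spots were left out, and spots of a probe were averaged. A probe was counted when a share of at least 0.5 of its spots was well above background on both arrays, and genes with several counted probes take their median. Genes carry the symbols of the array files, which can be old; 8 of 8 probes had the same name through their accession in the RefSeq table of GRCr8. The members and lists were chosen with earlier results of these data known. The genes named are all members, all counted genes of the PDGF, PTPRZ1 and Hedgehog lists, and the 3 largest differences of each other list. The number of arrays limits the precision. Zfp488, Chd7, Megf11, Pcdh15, Xylt1, Trf, Boc and Rbfox3 of the lists were not analysed here. Steps were tested on simulated data; normexp used limma 3.58.1 in R 4.3.3, the rest Python 3.11.15.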

Additional observations from a re-analysis of the deposited data

How the results depend on the processing

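The median of the 7 genes ran from 0.13 to 0.18 over 11 of 12 alternatives and was 0.80 with spike-in scaling, where 14 of 14 other lists had a median above 0 instead of 7. With no background filter, or with probes well above background on 1 array admitted, Olig2 gave 0.21. Counts of all genes at 2-fold were 17 female and 63 male as reported, out of 15276 genes. They were 514 and 17 with spike-in scaling and 5 and 18 with normexp. Where 1 array above background sufficed they were 200 and 152 of 15950 genes, and without a background filter 421 and 260 of 18391. Without the 4 bands of array rows rich in dim male-bright spots they were 12 and 39 of 12814 genes. Lower thresholds gave 139 and 237 at 1.5-fold, and 872 and 1178 at 1.2-fold. The PDGF list's median turned to 0.0037 with scaling by the median. The cause of these shifts was not tested. Leaving out the farthest spot pair of repeated probes was chosen after seeing the data. No paired analysis was possible because each group has 1 array. Signal over background limits the coding probe of Olig2.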

Other observations

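The coding probe of Olig2 was not well above background on the male array while a probe further along the same transcript was bright. Of 2716 genes with exactly 2 probes of 1 accession, 273, or 10.1%, had 1 counted probe and 1 that was not. In 141 of these, or 51.6%, the counted probe was the one that starts later in the transcript, as it is for Olig2.

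In 4 of 20 bands of array rows, 3.17% to 10.2% of the dim spots were over 2-fold brighter on the male array. These bands contain 2 of 10 spots of Olig1, 2 of 10 of Pdgfra, 1 of 10 of Cspg4 and none of the single spots, and without them Olig1 gave 0.28, Pdgfra 0.18 and Cspg4 0.098.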
